A study of Rattus norvegicus with 7 samples.

Results

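The genes described here were gathered by name as genes of motile cilia, the beating hair-like organelles that move mucus along the airways. Not all of these genes are particular to motile cilia. They were taken as every probe set with a single gene symbol that was Foxj1 or began, before a digit, with Dnah, Dnai, Dnali, Dnaaf, Tekt, Rsph, Cfap, Drc, Odad, Spag or Ift. The rule used names and no measured values, and it found 72 genes on 90 probe sets, out of 14217 genes with a single symbol and 31042 non-control probe sets on the array. Lung RNA was compared between 3 arrays of Dahl salt-sensitive rats kept in hypoxia and given SU-5416, a VEGF receptor inhibitor (group HSU), and 4 arrays of rats of that strain that received sorafenib, an inhibitor of several kinases, on top of both (group HSU_Sor). All 7 arrays therefore share the hypoxia, at an inspired oxygen of about 9.5%, and the SU-5416. They also share the sampling at 3.5 weeks, the body weight of 250 to 350 grams and the source, the right lung after its vessels had been perfused with saline. Arrays of rats in normal air and in hypoxia alone belong to the described design and were not analysed here.

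Hypoxia combined with SU-5416 is used in rats as a model of pulmonary hypertension, so the lung vessels, not the airways, were the tissue the model was made for. The titles of the HSU arrays end in a letter b (1b, 2b and 3b) and those of the HSU_Sor arrays (1 to 4) do not. If that letter marks a run, run and sorafenib cannot be told apart. Each array was taken as its own rat, which the labels do not state outright. The p-values measure only the spread between these 7 samples.

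A motile cilium is built around an axoneme, a ring of doublet microtubules around a central pair. Outer and inner dynein arms are the motors that slide the doublets. Radial spokes and the nexin-dynein regulatory complex pass control signals to those motors, and tektins lie inside the doublet wall. The dynein arms are put together in the cytoplasm by assembly factors, and intraflagellar transport carries parts along the growing cilium. In the lung, motile cilia stand on the multiciliated cells of the bronchi and bronchioles, where the transcription factor FOXJ1 drives the programme together with RFX factors, which bind X-box motifs. Intraflagellar transport also serves the single immotile primary cilium of many other cell types, so its genes are not particular to ciliated airway cells.

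Values are log2 expression as deposited. A difference is HSU_Sor minus HSU on that scale, so that 1 unit is a doubling. Levels are never set against each other between probe sets, because probes differ in their response. Differences were tested with limma, two-sided, with Benjamini-Hochberg adjustment over the 15521 probe sets whose mean lay above the median of all probe sets (3.64). Of the cilium genes, 45 had at least 1 probe set above that level (54 probe sets), and the probe set with the highest mean stood for each gene. The number of rats limits the precision, and in whole lung RNA fewer ciliated cells and less RNA per cell cannot be told apart.

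The remaining 27 genes had no probe set above that level. They were Cfap100, Cfap20dc, Cfap276, Cfap299, Cfap410, Cfap69, Cfap90, Dnaaf1, Dnaaf3, Dnaaf8, Dnah17, Dnah2, Dnah7, Dnai1, Dnai7, Drc1, Ift70a1, Odad3, Rsph3, Rsph6a, Rsph9, Spag11a, Spag16, Spag4, Spag5, Tekt5 and Tekt5l1. Their list includes Dnai1, an outer arm intermediate chain that ciliated airway cells need, and both outer arm genes on the array. All 36 member probe sets under that level, further probe sets of tested genes among them, held values between 1.87 and 4.05. Over all 31042 probe sets with no such filter, 2 cilium genes, Cfap300 and Ift20, were lower at an unadjusted p below 0.05 in limma, beside 2.17% of all probe sets, and 0 were higher, beside 1.34%. None passed adjustment.

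Among the genes above it, RNA of the motile cilium machinery was clearly measured in every lung. Foxj1, the master transcription factor of motile ciliogenesis, read 9.28, 9.21 and 9.21 on the HSU arrays, in the order of their numbers, and 9.45, 9.19, 9.21 and 9.20 on HSU_Sor 1 to 4. Rsph1, a radial spoke head protein, read 10.22, 10.33 and 10.22 without sorafenib and 10.004, 9.80, 10.62 and 10.22 with it. Both are genes by which ciliated airway cells are recognised, and the groups overlapped for each. The difference of Foxj1 was 0.03 ± 0.08 (SE), with an interval from -0.16 to 0.21 and an adjusted p of 0.957 in limma, and it was -0.04 without HSU_Sor 1.

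No cilium gene passed the test for a difference with sorafenib. None of the 45 tested genes passed the adjusted threshold of 0.05, where the share of all tested probe sets was 0.00%. At an unadjusted p below 0.05 in limma, 0 genes were higher, beside 2.33% of all tested probe sets, and 1 was lower, beside 3.67% of them. Adjusted p-values of the cilium genes ran from 0.812 to 0.999. By sign alone 18 genes were higher and 27 lower with sorafenib, while 46.0% of all tested probe sets were higher. The median difference was -0.02, beside -0.01 over all tested probe sets, and single differences lay between -0.18 and 0.27. No gene reached a 1.4-fold difference, the minimum fold that the series text names, beside 4.46% of all tested probe sets, and thus none combined that fold with an unadjusted p below 0.01, beside 0.844%. Groups that did not overlap were found for 0 genes upward, beside 2.01% of all tested probe sets, and for 1 downward, beside 3.25%.

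The intervals say how much could have been missed. For 38 of the 45 genes the 95% confidence interval of the difference lay wholly within 1.4-fold in either direction, beside 66.3% of all tested probe sets. For the other 7, Dnali1, Tekt1, Tekt4, Rsph1, Drc3, Cfap77 and Ift74, the interval reached 1.4-fold in at least 1 direction. Those 7 are genes with wide spread between lungs: Cfap77, a protein of the doublet microtubule wall, ran from 6.36 on HSU_Sor 2 to 7.52 on HSU_Sor 4, and Ift74, an anterograde transport subunit, ran from 7.82 on HSU_Sor 4 to 8.67 on HSU 2b. Both were named after their values were seen. Over the 45 genes the median range across arrays was 0.37, beside 0.44 for all tested probe sets. Counted over all 54 tested probe sets of these genes, 42 intervals lay wholly within 1.4-fold and 12 reached it. The median range of those 54 was 0.40.

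**Figure D1:**
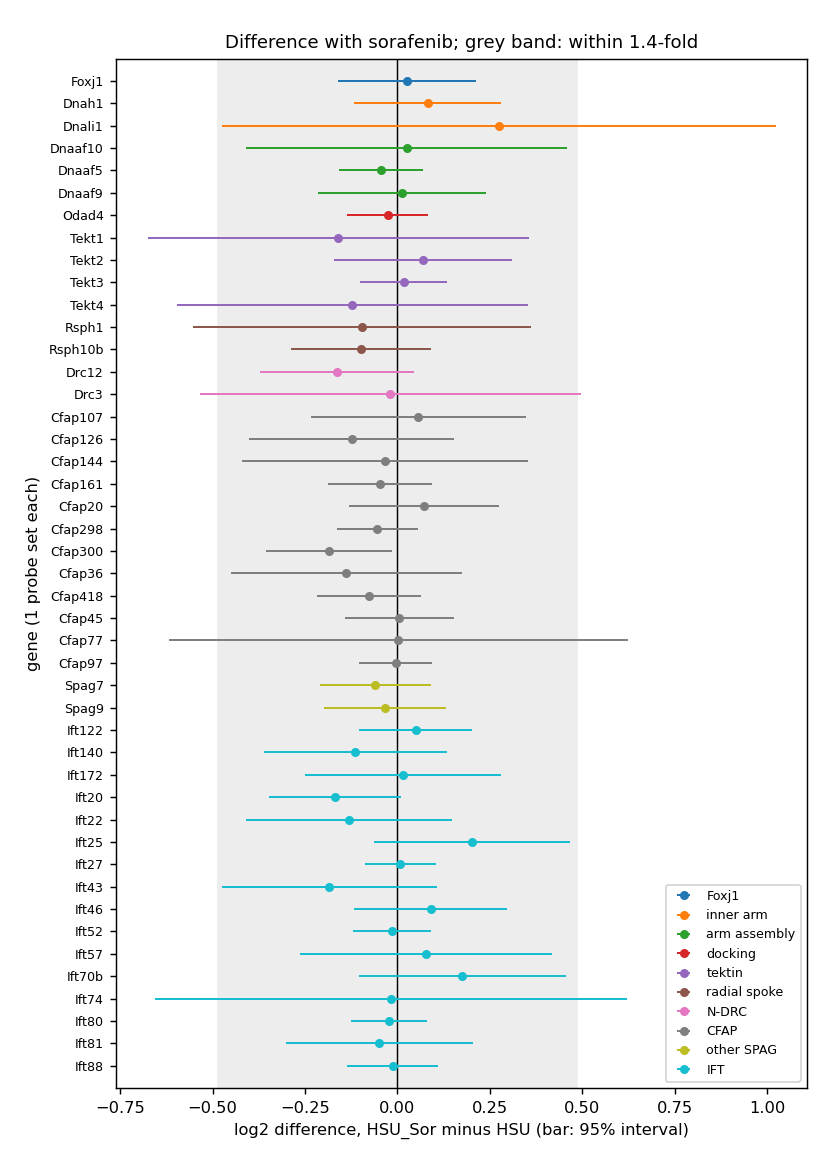
Log2 difference (HSU_Sor minus HSU, x axis) of the 45 tested cilium genes (y axis) with its 95% confidence interval, with colours by role and a grey band for changes within 1.4-fold. Every point lies between -0.18 and 0.27, inside the band, and the interval of Cfap300 alone does not cross 0.

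The RefSeq promoter table of build GRCr8 gave a window from 250 bases before to 50 after the gene start for 36 of the 45 tested genes. RFX factors bind the X-box, a motif of inverted half-sites, and its half-site, searched as GTTGCC. Forkhead factors such as FOXJ1 bind a core searched as TGTTTAC. Both strands were read, and an X-box can overlap a half-site. The half-site stood in 36.1% of the windows of tested cilium genes (13 of 36) and in 12.2% of all 33469 windows of that length. The X-box stood in 16.7% of them (6 of 36) and in 2.06% of all windows, and the forkhead core in 8.33% (3 of 36) and 3.78%. Over all member genes, tested or not, the shares were lower. Their 70 windows, from 58 genes, held the half-site in 27.1%, the X-box in 14.3% and the forkhead core in 4.29%. A match of letters describes the window and does not show that a factor binds there.

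The sequences below are those of cilium genes whose highest value came from HSU_Sor 3, the array pattern described further on, that hold an X-box or half-site in the 90 bases before the gene start or the first 10 after it. There were 18 genes highest on that array, 16 had a window, and 7 held such a match. They were picked after the values were seen and show what the motif looks like in this gene group. Capitals mark the matched letters, GTTGCC or its reverse complement GGCAAC and, in Tekt4 and Cfap45, the X-box. Each sequence reads 5′ to 3′ on the gene's strand, ends 10 bases after the gene start, and comes from RefSeq, build GRCr8. The stretches lie at chr1:147177812-147177911, minus strand (Cfap161), chr5:143907715-143907814, minus (Tekt2), chr10:14992194-14992293, plus (Tekt4), chr10:44019272-44019371, minus (Cfap144), chr10:57479112-57479211, minus (Tekt1), chr12:39618532-39618631, plus (Ift81) and chr13:87521741-87521840, plus (Cfap45).
Cfap161: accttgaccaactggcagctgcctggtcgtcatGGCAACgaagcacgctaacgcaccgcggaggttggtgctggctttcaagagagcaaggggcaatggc
Tekt2: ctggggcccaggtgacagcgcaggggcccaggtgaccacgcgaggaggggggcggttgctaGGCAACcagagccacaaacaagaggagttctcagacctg
Tekt4: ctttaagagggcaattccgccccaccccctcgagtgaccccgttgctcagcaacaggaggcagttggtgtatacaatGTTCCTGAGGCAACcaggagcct
Cfap144: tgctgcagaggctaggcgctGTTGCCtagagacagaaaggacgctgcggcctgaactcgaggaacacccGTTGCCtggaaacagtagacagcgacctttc
Tekt1: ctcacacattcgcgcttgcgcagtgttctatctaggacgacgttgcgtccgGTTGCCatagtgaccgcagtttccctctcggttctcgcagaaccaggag
Ift81: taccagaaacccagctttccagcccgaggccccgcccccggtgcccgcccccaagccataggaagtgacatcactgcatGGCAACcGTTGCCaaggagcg
Cfap45: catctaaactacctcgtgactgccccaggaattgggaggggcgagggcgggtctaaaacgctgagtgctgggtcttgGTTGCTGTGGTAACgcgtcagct

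Among the inner dynein arm genes, 2 of 5 were above the filter. Dnali1 encodes the light intermediate chain of the inner arms. It read 7.20, 6.89 and 7.12 without sorafenib and 7.14, 6.90, 8.20 and 7.14 with it, so HSU_Sor 3 stood above the other 6 arrays, which overlapped. Its difference of 0.27 ± 0.31 (SE) was the largest in either direction among the 45 genes, each by its brightest probe set. It had an interval from -0.47 to 1.02 and an unadjusted p of 0.41 (limma, adjusted p = 0.903), and was -0.01 without HSU_Sor 3. Dnah1, an inner arm heavy chain, read 6.06, 6.14 and 6.13 in HSU and 6.13, 6.10, 6.39 and 6.14 in HSU_Sor, again highest on HSU_Sor 3, with a difference of 0.08 ± 0.08 (SE).

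Assembly and docking of the arms gave small differences. Dnaaf5, a scaffold protein for dynein preassembly, read 9.90, 9.91 and 9.99 without sorafenib and 9.90, 9.83, 9.90 and 9.91 with it, a difference of -0.04 ± 0.05 (SE). Dnaaf10, a co-chaperone, read 4.68, 4.77 and 4.87 against 4.50, 4.54, 5.18 and 4.97, and both extremes were HSU_Sor arrays. Dnaaf9 read 10.62, 10.77 and 10.78 against 10.63, 10.75, 10.94 and 10.63. The differences of Dnaaf10 and Dnaaf9 were 0.03 and 0.01 and turned sign when single arrays were left out. Odad4, of the complex that docks the outer arms, ran from 3.92 to 3.97 in HSU and from 3.87 to 3.96 in HSU_Sor, just above the filter.

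Of the 4 tektins above the filter, 2 were higher and 2 lower by sign. Tekt1 read 6.60, 6.52 and 6.48 without sorafenib and 6.50, 5.94, 6.87 and 6.18 with it, so the HSU_Sor arrays lay on both sides of all HSU arrays. Its difference was -0.16 ± 0.21 (SE), with an interval from -0.67 to 0.35. Tekt2 read 9.40, 9.45 and 9.23 against 9.40, 9.44, 9.62 and 9.26, and its difference was 0.07, or -0.03 without HSU_Sor 2 and 3. Tekt4 read 4.78, 4.43 and 4.80 against 4.47, 4.16, 4.95 and 4.63. Tekt1 and Tekt4 were thus both lowest on HSU_Sor 2 and highest on HSU_Sor 3. Tekt3 ran the other way, with 4.95, its highest value, on HSU_Sor 2, while the other 6 arrays lay between 4.82 and 4.89.

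In the radial spoke and the nexin-dynein regulatory complex, HSU_Sor 2 was the lowest array for all 4 genes above the filter. Rsph1, with the values given above, had a difference of -0.10 ± 0.19 (SE) and an interval from -0.55 to 0.36, and the difference was 0.03 without HSU_Sor 2. Rsph10b, a further spoke protein, read 6.91 on 5 arrays, 7.19 on HSU 3b and 6.89 on HSU_Sor 2. The readings at 6.91 were equal to within 0.001. Such equal readings on 3 or more arrays occurred in 6 of the 45 genes (13.3%) and in 11.9% of all tested probe sets. The difference of Rsph10b was -0.10 ± 0.08 (SE).

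Drc3 is a subunit of the nexin-dynein regulatory complex. It read 8.64, 8.39 and 8.35 without sorafenib and 8.37, 8.07, 8.98 and 8.35 with it, and its difference of -0.02 ± 0.21 (SE) changed sign when arrays were left out. Drc12 read 10.65, 10.64 and 10.57 against 10.41, 10.27, 10.53 and 10.61. The HSU_Sor values were lower in 3 of the 4 arrays than in any HSU array, and HSU_Sor 4 lay between HSU 3b and HSU 2b. The difference of Drc12 was -0.16 ± 0.09 (SE), with an unadjusted p of 0.102 in limma (adjusted p = 0.874). Without HSU_Sor 4 it was -0.22, with an unadjusted p of 0.0362 (limma, adjusted p = 0.824).

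Of the CFAP genes, named for proteins found in cilia and flagella, 12 of 19 were above the filter, and 1 of these, Cfap300, gave the lowest p of the gene group. Cfap300 is linked to dynein arm assembly. It read 6.26, 6.05 and 6.15 in HSU and 6.04, 6.04, 5.89 and 5.91 in HSU_Sor. The groups did not overlap, but HSU 2b exceeded the nearest HSU_Sor arrays by only about 0.01. The difference was -0.18 ± 0.07 (SE), with an interval from -0.35 to -0.01. Its unadjusted p was 0.0379 and its adjusted p 0.812 in limma, so it did not pass. Without HSU 1b the difference was -0.13 and the unadjusted p in limma 0.129.

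The other named CFAP genes overlapped between the groups. Cfap126, known as Flattop, which sits at the doublet wall, read 9.73, 9.45 and 9.44 against 9.45, 9.19, 9.57 and 9.46, a difference of -0.12 ± 0.12 (SE). Cfap298, which dynein arm assembly needs, ran from 10.05 to 10.11 in HSU and from 9.97 to 10.07 in HSU_Sor, a range of 0.14 over the 7 arrays. Cfap418 differed by -0.08 ± 0.06 (SE). Cfap36 differed by -0.14 by its brighter probe set and by 0.00 by the other, so the pair gave no common direction.

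Chosen after its values were seen, Cfap144, a doublet wall protein of ciliated cells, read 12.69, 12.62 and 12.60 in HSU and 12.40, 12.30, 12.91 and 12.81 in HSU_Sor. The HSU arrays lay within 0.1 of each other, and the HSU_Sor arrays lay below and above them. Its second probe set had the same pair of sorafenib arrays, 3 and 4, above all HSU arrays, at 11.82 and 11.77, with HSU between 11.49 and 11.67.

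**Figure D2:**
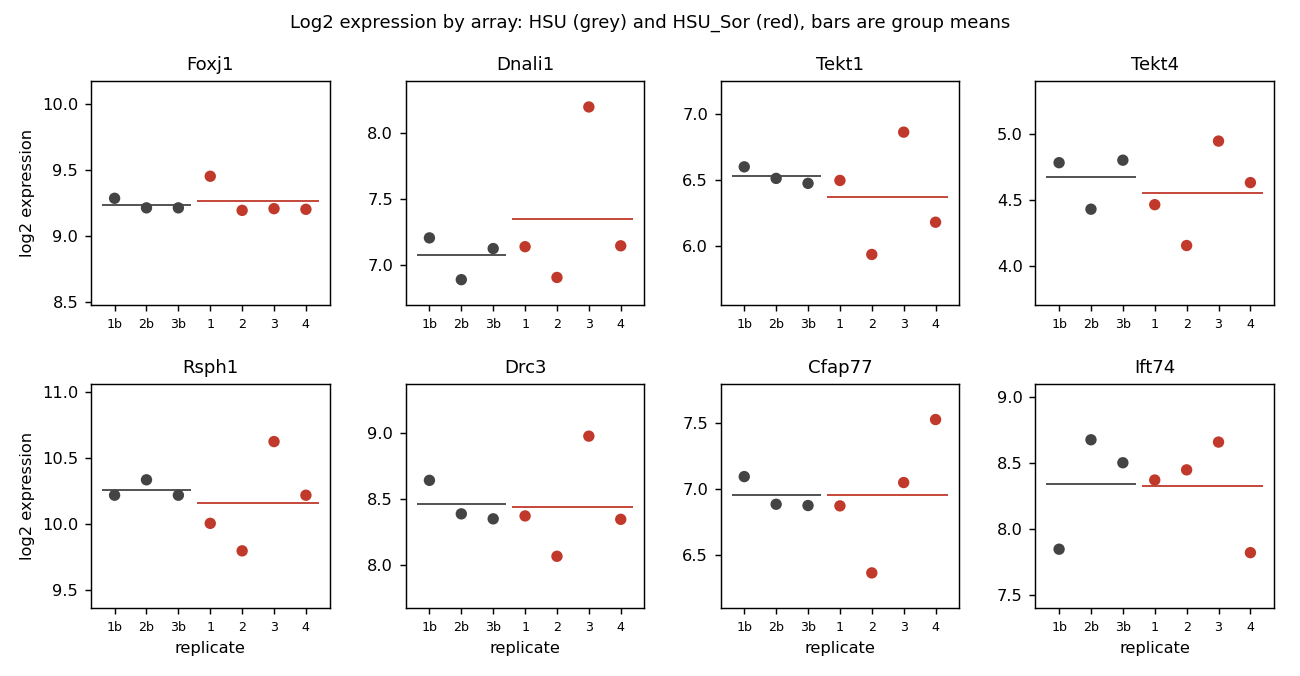
Log2 expression (y axis) of selected cilium genes on each of the 7 arrays (x axis, by replicate), HSU in grey and HSU_Sor in red, with the group means as lines. Foxj1 is highest on HSU_Sor 1, at 9.45, whereas Rsph1 and Dnali1 are highest on HSU_Sor 3, at 10.62 and 8.20.

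Intraflagellar transport was the best covered machine, with 16 of 17 genes above the filter, 7 higher and 9 lower by sign and none with an unadjusted p below 0.05 in limma. Ift20, which links transport to the Golgi, read 10.17, 10.22 and 10.28 without sorafenib and 10.04, 10.18, 9.91 and 10.09 with it. The groups overlapped at HSU_Sor 2, and the difference was -0.17 ± 0.07 (SE) with an unadjusted p of 0.0598 in limma. Ift43, of the retrograde complex, read 8.92, 8.93 and 9.11 against 8.64, 8.61, 9.01 and 8.94, a difference of -0.18 ± 0.12 (SE).

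In the opposite direction, Ift25, a subunit of the anterograde complex, read 9.93, 10.21 and 10.21 without sorafenib and 10.46, 10.43, 10.21 and 10.17 with it. Its difference was 0.20 ± 0.11 (SE), and its second probe set gave 0.21 ± 0.11. Without HSU_Sor 3 the second probe set differed by 0.29 with an unadjusted limma p of 0.0181 (adjusted p = 0.763), and the first had an unadjusted limma p of 0.102. Ift70b read 7.94, 8.04 and 7.91 against 8.32, 7.87, 8.27 and 8.10, a difference of 0.18 ± 0.12 (SE), or 0.27 without HSU_Sor 2, with an unadjusted limma p of 0.0169 and an adjusted p of 0.819. The groups overlapped for each of these, and neither passed. Ift122, of the retrograde complex, differed by 0.05 and -0.03 by its 2 probe sets. Subunits of 1 transport machine were thus on both sides of 0, with none past the test.

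Spag7 and Spag9 and, under the filter, Spag4, Spag5 and Spag11a carry the sperm antigen name that the rule matches. They were not counted with the axonemal genes here. Spag7 read 9.50, 9.47 and 9.69 in HSU and 9.47, 9.50, 9.50 and 9.50 in HSU_Sor. Spag9, a scaffold for kinases of the JNK pathway, differed by -0.03 by its brightest probe set, or 0.01 after quantile normalization, and by -0.18 and 0.28 by the other 2, and all its intervals included 0.

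The clearest structure in these genes lay between single lungs of the sorafenib group. HSU_Sor 2 was the lowest of the 7 arrays in 24 of the 45 genes (53.3%), whereas it was the lowest in 15.6% of all tested probe sets. HSU_Sor 3 was the highest in 18 genes (40.0%), whereas it was the highest in 22.4% of all. Both held at once in 11 genes (24.4%), beside 5.77% of all. These counts use the brightest probe set of each gene. Over all 54 tested probe sets of these genes, HSU_Sor 2 was lowest in 24, HSU_Sor 3 highest in 20 and both held in 11. The further probe sets thus added none that was lowest on HSU_Sor 2. With the mean of a gene's probe sets, HSU_Sor 2 was lowest in 46.7%, beside 15.8% of all. With each array centred on its median, the share lowest on HSU_Sor 2 was 31.1%, beside 9.17% of all, and the share highest on HSU_Sor 3 was 46.7%, beside 31.1% of all.

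**Figure D3:**
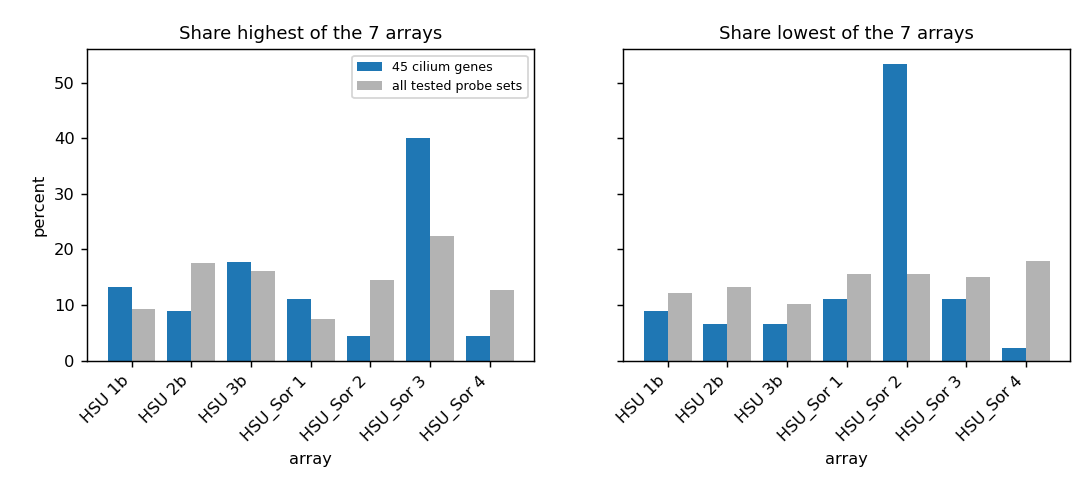
For each of the 7 arrays (x axis), the percent of the 45 tested cilium genes and of all 15521 tested probe sets (y axis) that have their highest, or their lowest, value on that array. HSU_Sor 2 holds the lowest value of 53.3% of the cilium genes and HSU_Sor 3 the highest value of 40.0%, beside 15.6% and 22.4% of all probe sets.

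The mean deviation of the 45 genes from their own 7-array means was 0.02, 0.00 and 0.02 on the HSU arrays and -0.03, -0.11, 0.11 and 0.00 on HSU_Sor 1 to 4. The group means were 0.01 ± 0.01 (SD, n = 3) and -0.01 ± 0.09 (SD, n = 4), so the sorafenib lungs lay around the others with a wider spread. All tested probe sets averaged 0.01 on HSU_Sor 2 and 0.03 on HSU_Sor 3. The 27 genes other than intraflagellar transport and the other Spag genes are called the axonemal set here, though not all are parts of the axoneme. It includes Foxj1 and the assembly factors, with the dynein arm, docking, tektin, spoke, nexin-dynein and CFAP genes. Its mean deviation was -0.15 on HSU_Sor 2 and 0.14 on HSU_Sor 3. For the 16 intraflagellar transport genes it was -0.06 and 0.07. Whether the wider spread and the larger deviation of the first set exceed chance was not tested.

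**Figure D4:**
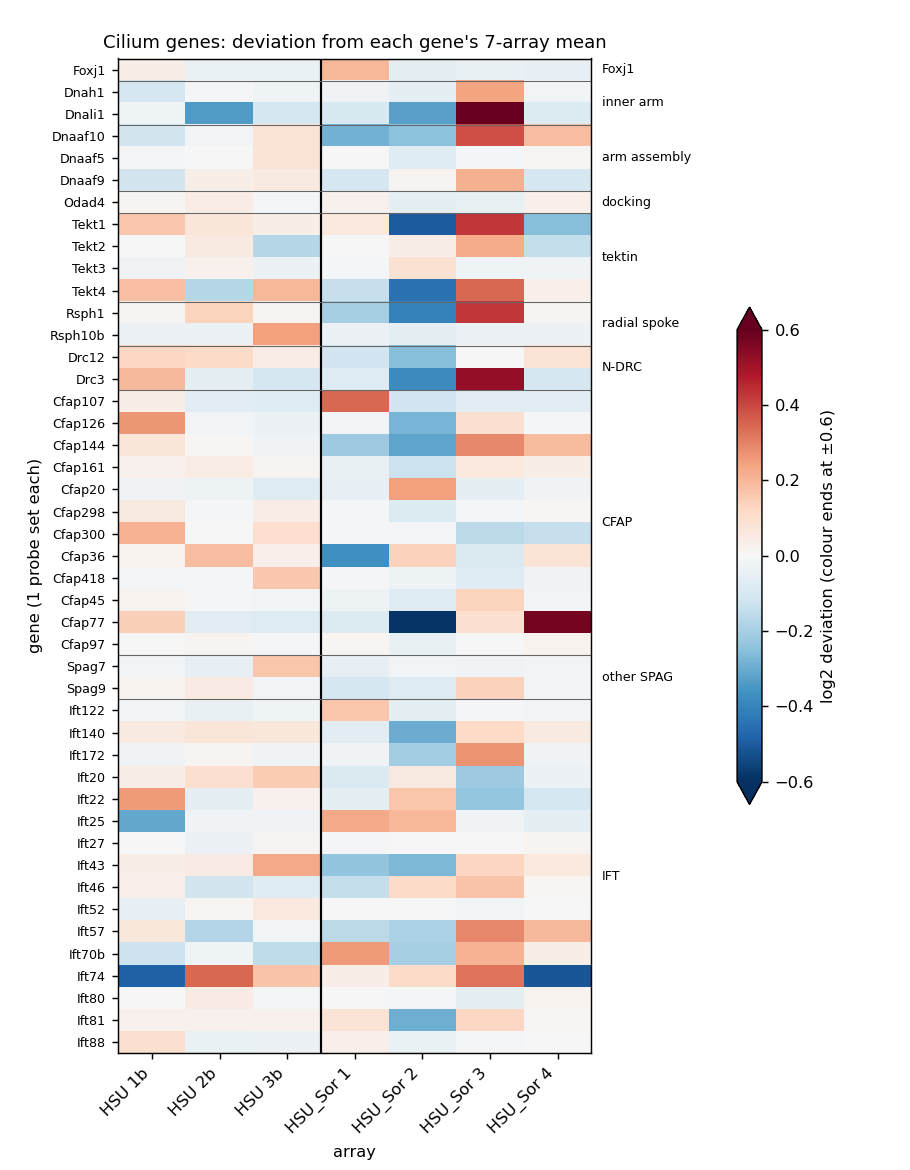
Deviation of each tested cilium gene (rows, by role) from its own mean over the 7 arrays (columns), in log2 units, from low to high as the colour bar gives. The column of HSU_Sor 2 is low for many genes of the axonemal set and that of HSU_Sor 3 high. The means are -0.15 and 0.14 over the 27 genes of that set, Foxj1 included.

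Co-variation was described by the correlation of each pair of genes. Over the 7 arrays the median Pearson r between 2 of the 45 genes was 0.07, beside 0.00 for all tested probe sets. It was 0.16 among the 27 genes of the axonemal set, Foxj1 included, and -0.05 among the 16 transport genes. All these values rest on the same 7 arrays, and they moved with the scaling. With arrays centred on their medians the median r of the 45 genes was 0.25, beside 0.14 for all tested probe sets, after quantile normalization it was 0.13, beside 0.01, and without HSU_Sor 2 it was -0.02. An r of at least 0.7 was reached by 13.2% of the pairs. The share was 16.5% of the 351 pairs within the axonemal set, and 5.80% of all pairs. With deviations from the group means in place of the values, the shares were 14.8%, 16.8% and 8.005%. Without HSU_Sor 2 and 3 they were 9.80%, 9.12% and 10.8%, and the median r was 0.03. The excess of close pairs was not seen there, but those 2 arrays were picked after they were seen to hold many extreme values. An r over fewer arrays also spreads more widely, so these shares do not compare directly with those over 7.

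Some genes tracked the mean of the other cilium genes closely and some ran against it. The correlation over 7 arrays was 0.95 for Rsph1, 0.95 for Ift172, 0.94 for Cfap45, 0.91 for Drc3 and 0.90 for Tekt4. These are a spoke, a nexin-dynein, a tektin, a CFAP and a transport gene. It was -0.16 for Foxj1, -0.77 for Tekt3 and -0.78 for Cfap20. Cfap45, Ift172 and Cfap20 were named after their values were seen. Cfap45 read 8.18, 8.15 and 8.14 in HSU and 8.13, 8.08, 8.29 and 8.14 in HSU_Sor, a small range with the same low and high arrays.

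Foxj1 was among the 24 genes lowest on HSU_Sor 2, at 9.19, but not among those highest on HSU_Sor 3. Its highest array was HSU_Sor 1, at 9.45, and its other 6 values lay between 9.19 and 9.28. Of the other 44 tested genes, 16 had a positive Pearson r with Foxj1 and the median r was -0.10, beside -0.07 over all tested probe sets. The gene most like it was Cfap107, named here for that likeness, which read 4.07, 3.96 and 3.95 in HSU and 4.37, 3.91, 3.96 and 3.96 in HSU_Sor. Its Pearson r was 0.996 (exact permutation p = 0.0032 over all pairings, two-sided) and its Spearman rho 0.827 (exact permutation p = 0.027). With Benjamini-Hochberg adjustment over 15520 probe sets the exact permutation p of r was 0.999, and r was 0.789 without HSU_Sor 1 and HSU 1b, the 2 arrays farthest from the median of Foxj1. Next came Ift122, with an r of 0.951, a rho of 0.527 and exact permutation p-values of 0.0341 and 0.236. That relation rested on the same 2 arrays, since r was 0.31 without them. Cfap36 ran against Foxj1, with an r of -0.868, a rho of -0.559 and exact permutation p-values of 0.0413 and 0.205, and its r was -0.14 without the same 2 arrays. In all, 3 of the 44 genes had an exact permutation p of r below 0.05, beside 3.51% of all tested probe sets, and none passed adjustment.

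Genes outside the name rule were read as well. Of 71 ciliated cell genes on a list of other axonemal and ciliogenesis genes, 40 were on the array and 23 above the filter, and none had an unadjusted p below 0.05 in limma in either direction. Their median difference was 0.00. HSU_Sor 2 was lowest in 13 of the 23 and HSU_Sor 3 highest in 9, and their mean deviation was -0.12 and 0.11 on those arrays, close to the values of the 45 genes. Rfx3, a transcription factor of ciliogenesis, read 8.998, 8.998 and 8.987 in HSU and 9.09, 8.62, 9.55 and 9.01 in HSU_Sor. Ropn1l, a radial spoke-associated protein, read 10.44, 10.33 and 10.15 against 10.37, 10.04, 10.77 and 10.30. Both were named after their values were seen and have the same lowest and highest arrays as Rsph1. Others on the list ran the other way, and those named here were likewise picked after their values were seen. Nme7 and Ccdc113 were lowest on HSU_Sor 3, at 8.68 and 5.22, and Cby1 was highest on HSU_Sor 2, at 8.15.

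**Figure D5:**
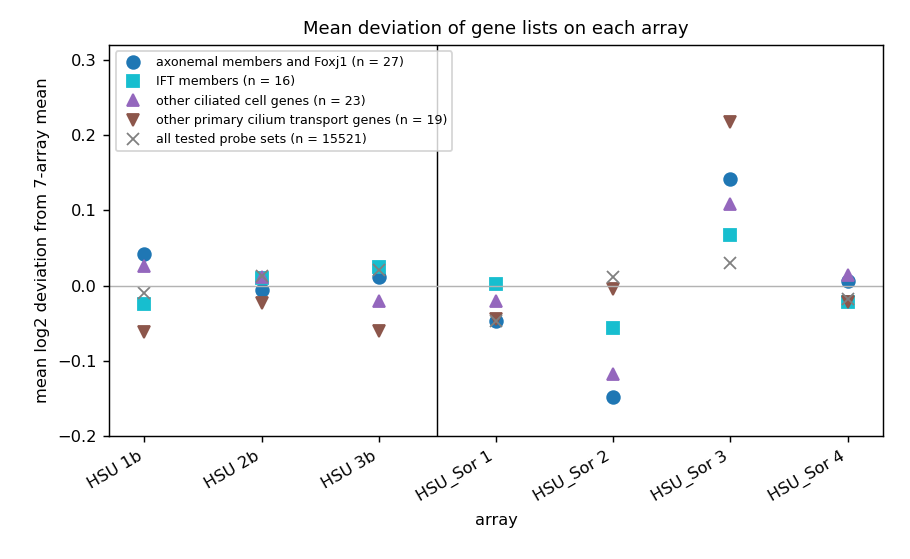
Mean log2 deviation from the 7-array mean (y axis) on each array (x axis) for each gene set. The sets are the 27 genes of the axonemal set, Foxj1 included, the 16 transport genes and all tested probe sets. Those outside the name rule are 23 ciliated cell and 19 primary cilium transport genes. The axonemal set and the ciliated cell set are both lowest on HSU_Sor 2, at -0.15 and -0.12, and highest on HSU_Sor 3, at 0.14 and 0.11.

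The list of primary cilium transport genes holds BBSome, kinesin and dynein-2 subunits. It also holds intraflagellar transport subunits whose symbols the rule did not match, such as Wdr19, Traf3ip1 and Cluap1. In function it is thus not separate from the members. Of its genes, 19 of 25 were above the filter and the median difference was 0.09. At an unadjusted limma p below 0.05, 1 of the 19, Lztfl1, was higher, beside 2.33% of all tested probe sets, and 0 were lower. Lztfl1, a regulator of BBSome traffic, differed by 0.24 ± 0.09 (SE), with a limma p of 0.03 (adjusted p = 0.812). HSU_Sor 3 was highest in 11 of the 19 and HSU_Sor 2 lowest in 4, with mean deviations of 0.22 and -0.01. The high reading of HSU_Sor 3 was thus shared with these genes and the low reading of HSU_Sor 2 was not, and that difference was not tested.

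Genes outside the name rule were also ranked by how closely their values over the 7 arrays followed the mean of the cilium genes. The cilium genes themselves were left out of that ranking. The closest of so many genes have a high r by selection alone. The 8 closest non-members were Phf3, with an r of 0.988, Nufip2, Luc7l2, Slc44a4, Trim65, Chfr, Kdm2a and Rc3h2, with an r of 0.968. Nufip2, an RNA-binding protein, read 11.86, 11.88 and 11.86 in HSU and 11.69, 11.36, 12.25 and 11.90 in HSU_Sor, so the low HSU_Sor 2 and high HSU_Sor 3 were not particular to ciliated cell genes. Among the 9254 non-member genes, Rfx3 was the highest placed of the outside ciliated list, at place 60 with an r of 0.926. Ak7, an axonemal adenylate kinase named after its values were seen, came at place 105. The lowest placed of that list was Cby1, at place 8780 with an r of -0.64.

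Markers of other lung cells were read on the same arrays. Secretory cells stand beside ciliated cells in the airway, and 7 of their 10 listed markers were above the filter, with a median difference of -0.53. Unadjusted limma p-values below 0.05 were found for 3, all lower with sorafenib, beside 3.67% of all tested probe sets. None passed adjustment, and the groups overlapped for all 3. The differences were -0.99 for Scgb3a1, -3.68 for Bpifa1 and -1.12 for Muc5b, while Scgb1a1, the club cell secretoglobin, differed by 0.00. Bpifa1 read 13.30, 12.22 and 9.61 in HSU and 9.78, 8.60, 7.75 and 6.00 in HSU_Sor. Muc5b read 10.56 on HSU_Sor 3, within the HSU values of 10.36 to 10.63. The mean deviation of the 7 markers was 0.93, 0.53 and 0.18 on the HSU arrays. On the HSU_Sor arrays it was between -0.81 and -0.16, lowest on HSU_Sor 4.

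Smooth muscle markers were lower at an unadjusted limma p below 0.05 in 4 of 7, beside 3.67% of all tested probe sets. Their median difference was -0.72, and none passed adjustment (lowest adjusted p = 0.15 in limma). The groups did not overlap for 4 of them, all downward, beside 3.25% of all tested probe sets. HSU_Sor 2 was the lowest array for 6 of the 7, and their mean deviation was -0.63 there and -0.04 on HSU_Sor 3, the highest of the sorafenib arrays. Within the sorafenib group the lowest and the highest array were thus those of the cilium genes, whereas the HSU arrays, between 0.33 and 0.45, lay above all of them. Of the 7 proliferation markers above the filter none passed, and their mean deviation was highest on HSU_Sor 2, at 1.07. Median differences of the alveolar type II, alveolar type I, mesothelial and basal cell markers lay between -0.05 and 0.10. At an unadjusted limma p below 0.05, 1 type I marker was higher, beside 2.33% of all tested probe sets. The part of any of these cell types in the readings of the cilium genes was not tested.

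A pair of HSU arrays stood apart in other genes, of which RT1-Bb and Mb were named after their values were seen. HSU 1b and 2b read 12.57 each on 1 probe set of RT1-Bb, an MHC class II gene, where the other 5 arrays lay between 3.55 and 3.72. On the second RT1-Bb probe set they were the lowest, at 13.17 and 13.08, with the others between 13.43 and 14.06, so the pair of probe sets disagreed. They also read 6.88 and 5.59 for Mb, the myoglobin of muscle, where the others lay between 2.57 and 2.64. Of the cardiac muscle markers, 3 of 7 were above the filter, with a median difference of -1.20. Mb was 1 of these and the only marker lower at an unadjusted limma p below 0.05, beside 3.67% of all tested probe sets. Myh6 read 10.65 and 10.79 on HSU 1b and 2b, with the other arrays between 7.85 and 9.29. Nppa was high on HSU 1b only, at 9.10, with 6.80 on HSU 2b and 6.74 to 6.80 on the others. The mean deviation of the cilium genes on HSU 1b and 2b, 0.02 and 0.00, was within 0.02 of that on HSU 3b.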

How the data were processed

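Lung RNA of 7 rats was measured on Affymetrix arrays. The authors deposited log2 expression per probe set, already normalized between arrays, in the series' value table; RMA and GCRMA are the tools named, per the submitters' processing notes, and which of the pair gave these values is not stated there. Array medians lay between 3.59 and 3.68, values ran from 0.29 to 16.14, and correlations between arrays were 0.984 to 0.992. The platform annotation gave a single symbol to 20826 of the 31042 non-control probe sets, several to 436 and none to 9780. All 90 member probe sets matched the RefSeq gene table of GRCr8 by gene identifier.

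The groups were compared with limma (version 3.58.1, R version 4.3.3), lmFit and eBayes, two-sided, over all probe sets above the median, with no covariate and Benjamini-Hochberg adjustment. The series text names SAM, which was not run. The script was tested on simulated data. Genes named were Foxj1, up to 4 per role with the smallest p, any with p below 0.05 and those whose probe sets disagreed in sign, plus the 8 non-members nearest the cilium mean. Exceptions are marked as chosen after their values were seen. The members and lists were chosen with earlier results of these data known.

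The lists were ciliated cell and primary cilium transport genes and markers of airway secretory, basal, alveolar type I and II, smooth muscle, cardiac, proliferating and mesothelial cells. Alternatives were other filters, array weights, median centring, quantile normalization, a robust eBayes with an intensity trend, the mean of a gene's probe sets, a block on the replicate number, each array left out, and, chosen after seeing the data, leaving out HSU_Sor 2 and 3 together.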

Additional observations from a re-analysis of the deposited data

Results flagged for a closer look

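Within the HSU_Sor group, 5 of the 27 named genes (18.5%) had 1 array far from the other 3 by Dixon's criterion for 4 samples. That criterion is meant to pass about 1 group of 20 by chance, but it passed 15.1% of all tested probe sets here, and 13.8% of those without 3 equal HSU_Sor values. Foxj1 read 9.45 on HSU_Sor 1, with the other HSU_Sor arrays between 9.19 and 9.21. Dnah1 read 6.39 on HSU_Sor 3, with the others between 6.10 and 6.14. Tekt3 read 4.95 on HSU_Sor 2, with the others between 4.83 and 4.85. On the low side, Dnaaf5 read 9.83 on HSU_Sor 2, with the others between 9.90 and 9.91. Rsph10b read 6.89 on HSU_Sor 2, where the others were all at 6.91. With those 3 readings equal, any departure meets the criterion, so it says nothing about Rsph10b.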

How the results depend on the processing

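No cilium gene passed the adjusted threshold in limma under any alternative, and the lowest adjusted p was 0.62, with array weights. The count of genes lower at an unadjusted p below 0.05 was 2 with no filter (Cfap300 and Ift20) and 0 above the 75th percentile, after quantile normalization and after median centring. Leaving out 1 array gave 0 to 2 lower, 0 to 1 higher, a median difference of -0.06 to 0.00 and a median pairwise r of -0.02 to 0.13. Genes gained at that unadjusted level were Ift20 and Ift70b without HSU_Sor 2, Drc12 without HSU_Sor 4 and, by its second probe set only, Ift25 without HSU_Sor 3. Leaving out HSU 1b, HSU 3b, HSU_Sor 3 or HSU_Sor 4 took Cfap300 above it. Without HSU_Sor 2 and 3 together, 1 probe set was higher, the second of Ift25, and 1 was lower, that of Ift20. After median centring the median pairwise r was 0.25 and the share lowest on HSU_Sor 2 was 31.1%. The cause of these shifts was not tested.

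Same-numbered arrays correlated in their deviations by -0.06, 0.18 and 0.14. With the replicate block in limma, 0 genes passed adjustment, 1 was lower at an unadjusted p below 0.05 (Ift43 in place of Cfap300) and the median difference was -0.03.

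Of the 27 named genes, 15 kept their sign under all alternatives. The other 12, Dnali1, Tekt4 and Rsph1 among them, did not. Dnaaf10 was -0.0350 with array weights, -0.0330 with the replicate block and -0.0347 without HSU_Sor 2 and 3, and Drc3 was 0.0119 with the block. Without HSU_Sor 2 and 3, Dnaaf9 was -0.0964, Odad4 0.0119, Tekt2 -0.0317 and Tekt3 -0.00743. Spag9 was 0.00829 after quantile normalization and 0.0234 as the mean of its probe sets. With 1 array left out, differences ran from -0.10 to 0.12 for Dnaaf10, -0.0568 to 0.0496 for Dnaaf9, -0.00965 to 0.42 for Dnali1, -0.20 to 0.11 for Drc3, -0.0362 to 0.0509 for Foxj1, -0.25 to 0.0254 for Rsph1, -0.10 to 0.00572 for Spag7, -0.0105 to 0.0349 for Tekt3 and -0.25 to 0.00933 for Tekt4. With 3 and 4 arrays a group, precision is limited, and dim probe sets near the filter can show compressed differences.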
